A study of Mus musculus with 6 samples.

Results

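Nox1, Noxo1, Gpx1, Gpx2, Gpx4, Sod1, Sod2, Prdx1, Hmox1 and Nqo1 were 10 of the 32285 genes in the deposited count matrices of a mouse small intestinal single-cell RNA-seq series. They encode an epithelial NADPH oxidase, its organizer subunit and 8 enzymes that handle superoxide, peroxides, haem or quinones. They were taken by gene symbol, because formyl peptide receptor signalling has been linked to Nox1, and all 10 symbols were found. The series compared crypt epithelium of mice that lack the formyl peptide receptor gene Fpr2 in intestinal epithelial cells (Fpr2VKO, labelled as an epithelial Fpr2 knockout) with that of control Fpr2f/f mice (labelled WT), with 3 libraries in each group. Both groups carried floxed Fpr2 alleles on a C57BL/6J background, and the Fpr2VKO mice also carried Villin-Cre, whose promoter drives Cre in the epithelium of the whole intestine, in crypts as well as villi. No treatment was named for either group, and the study's methods describe its mice as young adults matched for age and sex. Crypts were taken from the ileum, EpCAM-positive cells were sorted by flow cytometry, and transcripts were counted as unique molecular identifiers (UMIs) in droplets. The library is the replicate throughout, so p-values measure the spread between these libraries.

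NOX1 passes electrons from NADPH across the membrane to oxygen and so makes superoxide, and it is best known from the epithelium of the colon. It works in a complex with p22phox (Cyba), the organizer NOXO1, the activator NOXA1 and the small GTPase RAC1. Superoxide dismutases turn superoxide into hydrogen peroxide, SOD1 mainly in the cytosol and SOD2 in mitochondria. Glutathione peroxidases, peroxiredoxins and catalase then remove hydrogen peroxide, and the transcription factor NRF2 (Nfe2l2) controls many of these genes, among them Nqo1 and Hmox1.

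The promoters of 3 of the genes are shown because their transcripts carry the patterns described below: Nox1 for its level in stem-like cells, Gpx2 for the estimate between genotypes and Prdx1 for its level in enterocyte-like cells. Each run holds the 250 bases before the RefSeq start site (GRCm38.p6), 5′ to 3′ on the strand of the gene, with the motifs that were found in capitals.
Nox1 (chrX:134111855-134112104, minus strand): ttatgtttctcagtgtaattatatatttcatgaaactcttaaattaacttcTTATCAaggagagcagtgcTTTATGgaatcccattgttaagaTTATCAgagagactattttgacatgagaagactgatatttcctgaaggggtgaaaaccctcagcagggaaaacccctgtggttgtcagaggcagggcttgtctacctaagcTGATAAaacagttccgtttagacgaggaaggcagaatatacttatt
Gpx2 (chr12:76795555-76795804, minus strand): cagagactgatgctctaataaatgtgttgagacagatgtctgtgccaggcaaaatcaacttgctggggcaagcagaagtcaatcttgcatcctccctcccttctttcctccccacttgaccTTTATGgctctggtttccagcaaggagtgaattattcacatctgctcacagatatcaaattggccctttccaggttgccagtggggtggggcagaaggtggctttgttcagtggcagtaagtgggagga
Prdx1 (chr4:116685349-116685598, plus strand): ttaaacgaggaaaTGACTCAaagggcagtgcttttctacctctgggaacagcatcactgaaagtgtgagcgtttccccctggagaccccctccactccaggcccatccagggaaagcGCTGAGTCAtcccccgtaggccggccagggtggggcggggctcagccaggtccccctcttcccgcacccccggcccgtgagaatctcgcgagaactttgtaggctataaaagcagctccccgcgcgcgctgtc
Both strands were searched in windows of 300 bases, 250 before and 50 after the start. The core of the antioxidant response element that NRF2 binds was written as TGACNNNGC, and 12.4% of all 32544 promoters held it. GATA factors were searched by the letters TGATAA, held by 8.91% of promoters. CDX factors were searched by the letters TTTATG, held by 11.9% of promoters. TCF factors were searched by the letters CTTTGAT, held by 3.73% of promoters. AP-1 was searched by the letters TGACTCA, held by 5.19% of promoters. The Nox1 window held 3 GATA matches and 2 CDX matches, 1 of them after the start and so not printed. The Gpx2 window held 1 CDX match and no antioxidant core. The Prdx1 window held 1 antioxidant core, which overlaps 1 of its 2 AP-1 matches. Of the other members, Sod1 had an antioxidant core and Gpx4 had GATA letters in 2 of its 4 windows, while Noxo1, Gpx1, Sod2 and Nqo1 had none of the 5 motifs. These 2 Gpx4 windows overlap and share the same GATA letters. These matches describe letters only. The Nox1 start site used by RefSeq lies inside the longer Nox1 span of the GENCODE annotation.

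The libraries held 90142126 to 189516114 UMIs. Of the barcodes with at least 1000 UMIs and 500 genes, 65.7 to 78% in the Fpr2f/f libraries and 76.1 to 90.1% in the Fpr2VKO libraries had over 20% mitochondrial UMIs and were left out. The median depth of the cells kept was 3033 to 4612 UMIs in Fpr2f/f and 6358 to 6728 UMIs in Fpr2VKO. A pair of libraries shared 0 to 23 cell barcodes, where independent draws from the list of barcodes give 1.79 to 5.68. The most, 23 against 4.54, were shared by Fpr2f/f replicate 2 and Fpr2VKO replicate 1, and 244 cells in all carried a barcode seen in more than 1 library. Pairs among replicates 1 and 2 of both groups shared 8 to 23. Fpr2f/f replicate 3 and Fpr2VKO replicate 3 shared 9, against 2.25 from independent draws, and all other pairs shared 0 to 4. The reason was not tested, and the main test between genotypes had no term for such sets of libraries. After doublet removal 16676 cells remained, of which 16388 were counted as epithelial (9771 Fpr2f/f and 6617 Fpr2VKO) and 288 were immune-like. The epithelial count includes 32 unnamed cells led by immunoglobulin genes. Fpr2 had 0 UMIs in every barcode of all 6 libraries, which allows up to 0.0633 to 0.12 counts-per-million (CPM) in epithelial cells, so the deleted gene could not check the genotype labels here. Epithelial cells fell into stem-like, transit-amplifying-like (TA-like), enterocyte-like, Paneth-like, goblet-like, enteroendocrine-like and tuft-like classes, and 6749 cells stayed unnamed (46.2 ± 10.3% in Fpr2f/f and 30.6 ± 5.28% in Fpr2VKO, SD, n = 3 libraries each). The summed level of 8 stem cell markers within stem-like cells was 3203 to 4286 CPM in Fpr2f/f and 6405 to 7183 in Fpr2VKO, with no overlap. The exact permutation test gave p = 0.1, the smallest that 3 libraries in each group can give. Of all single genes tested in this class, 12.4% did not overlap either. The sum does not show which markers carry it.

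Nox1 (chromosome X, chrX:134086421-134221956 in GRCm38) was highest in stem-like cells and Noxo1 (chr17:24696234-24700529) in enterocyte-like cells. Levels are the UMIs of a gene over all UMIs of its class in a library, in CPM, as mean ± SD over the 6 libraries, and carry no test between classes because the classes were built from transcripts of the same cells. The members themselves were kept out of the clustering. In stem-like cells Nox1 was at 12.9, 25 and 25.2 CPM in Fpr2f/f against 24.2, 20.7 and 29.6 CPM in Fpr2VKO libraries. The first Fpr2f/f library was the lowest and the third Fpr2VKO library the highest, and the groups overlapped. The mean of 22.9 ± 5.7 CPM in stem-like cells was 2.13 times that in TA-like cells, and it was higher in 6 of 6 libraries although the ranges met. TA-like cells were at 10.8 ± 1.76 CPM, tuft-like cells at 6.65 ± 7.01 CPM and enteroendocrine-like cells at 6.23 ± 4.18 CPM. The last pair did not differ beyond their spread, and they rested on 11 and 28 Nox1 UMIs in all. Enterocyte-like cells were at 2.49 ± 1.14 CPM, goblet-like cells at 2.21 ± 1.11 CPM and Paneth-like cells at 1.11 ± 1.02 CPM, and each of these overlapped its neighbour in the order. Of the 1565 Nox1 UMIs in epithelial cells, 684 lay in stem-like and 515 in TA-like cells.

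**Figure D1:**
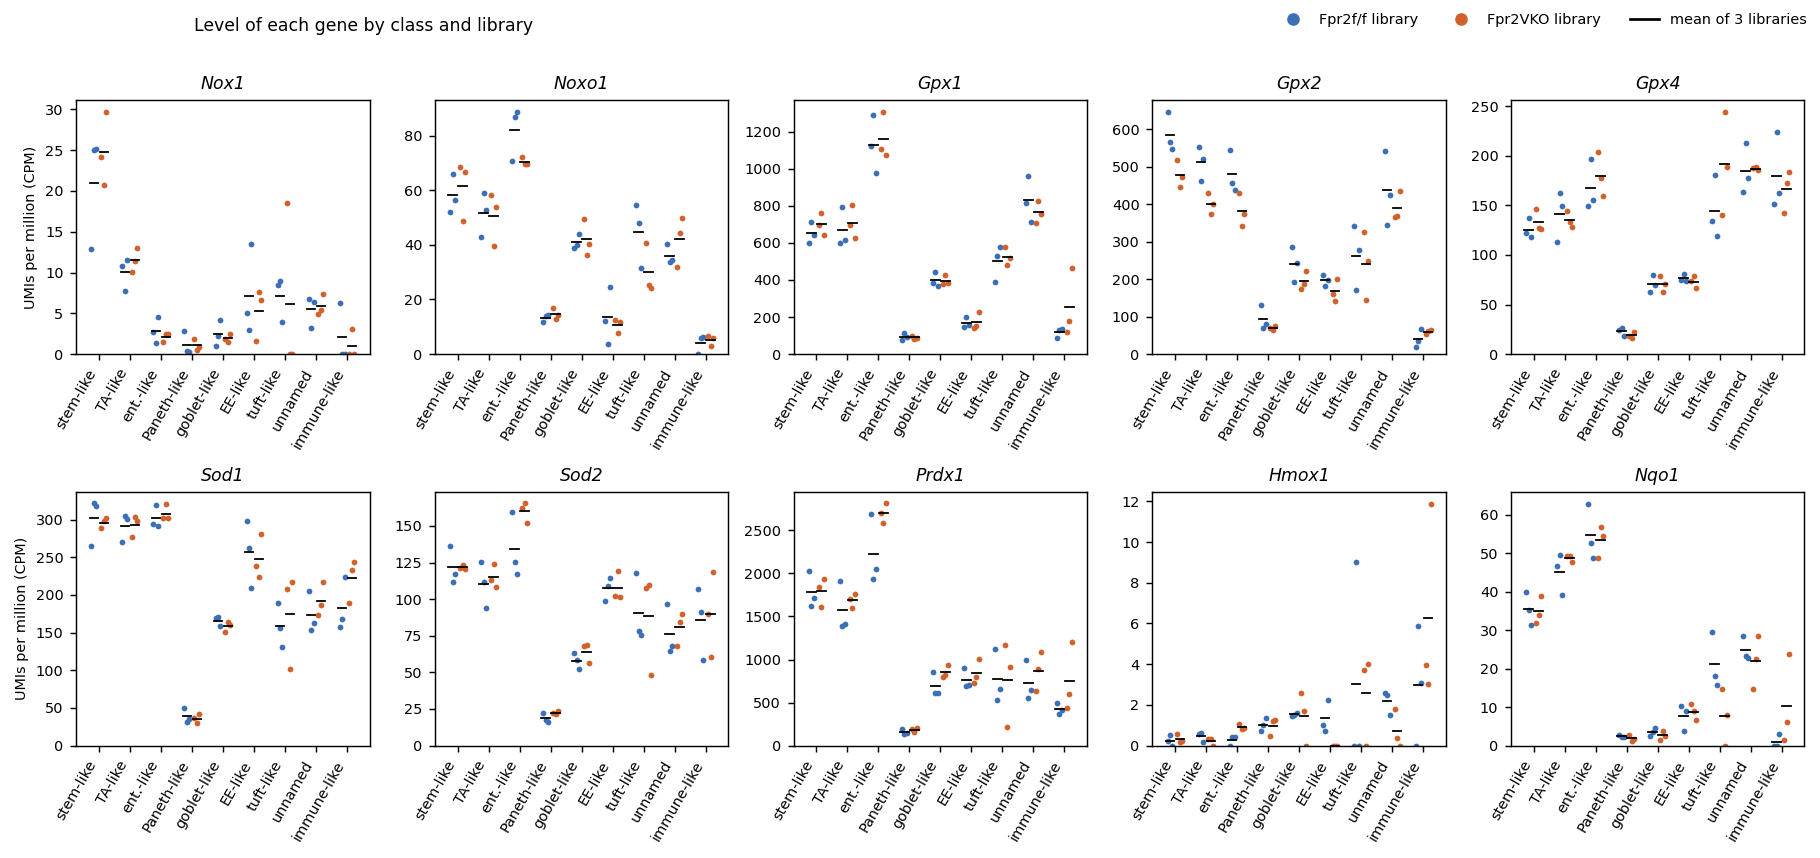
Level of each of the 10 genes (y axis, CPM, linear scale) by class (x axis) in each library, with the mean of 3 libraries as a bar. Among the named classes Nox1 peaks in stem-like cells, 7 genes peak in enterocyte-like cells and Paneth-like cells are low for most genes. The Gpx4 bars of both groups are higher in unnamed than in enterocyte-like cells.

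Noxo1, the subunit that tethers the NOX1 complex at the membrane, had another order. In enterocyte-like cells it was at 70.6, 86.6 and 88.5 CPM in Fpr2f/f against 72.1, 69.6 and 69.6 CPM in Fpr2VKO libraries. Every one of these values lay above the range in stem-like cells, 48.9 to 68.5 CPM, where the mean was 59.8 ± 8.41 CPM. TA-like cells followed at 51.1 ± 8.05 CPM, goblet-like cells at 41.5 ± 4.62 CPM and tuft-like cells at 37.4 ± 12.5 CPM. These neighbours overlapped. Paneth-like cells (14 ± 1.79 CPM) lay below every value of these classes, and enteroendocrine-like cells had the lowest mean (12.1 ± 7.08 CPM), with 1 library at 24.7 CPM inside the tuft-like range. The place of the highest level thus differed: the enterocyte-like mean of Nox1 was 9.2 times below its stem-like mean, while the stem-like mean of Noxo1 was 1.27 times below its enterocyte-like mean. The order of Noxo1 did not hold throughout the enterocyte-like class. Its shallow cluster 4, described below, was at 51.5 CPM (44.2 to 56.9 CPM per library), under the stem-like mean. The deeper enterocyte-like clusters 9 and 15 were at 72.4 and 96 CPM.

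Other parts of the oxidase complex were also measured. Noxa1, which encodes the activator subunit, was at 32.8 ± 4.13 CPM in stem-like, 29.6 ± 4.49 CPM in TA-like and 7.62 ± 2.55 CPM in enterocyte-like cells. It was higher in stem-like than in TA-like cells in 3 of 6 libraries, and the ranges of this pair overlapped. Cyba, the membrane partner p22phox, was at 115 ± 13.9 CPM in stem-like and 87.6 ± 11.4 CPM in enterocyte-like cells, and Rac1 at 414 ± 29.3 CPM and 376 ± 32.2 CPM. The dual oxidase Duox2, which releases hydrogen peroxide at the cell surface, and its maturation factor Duoxa2 were highest in enterocyte-like cells, at 184 ± 79.6 CPM and 50.3 ± 20.8 CPM. Catalase (Cat) was highest there as well, at 149 ± 40.3 CPM, with enteroendocrine-like cells next at 106 ± 34 CPM. The ranges of Duox2, Duoxa2 and Cat each overlapped those of the next class, which was TA-like for Duox2 and Duoxa2. In enterocyte-like cluster 4 Cat was at 50.5 ± 15.8 CPM in Fpr2f/f and 47.2 ± 12.1 CPM in Fpr2VKO. Both lay below its stem-like mean of 76.6 CPM. The phagocyte oxidase genes Cybb and Ncf1 had 282 and 132 UMIs in unnamed cells, of which 270 and 116 lay in a cluster of 32 cells led by the immunoglobulin genes Jchain, Ighm and Igha.

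**Figure D2:**
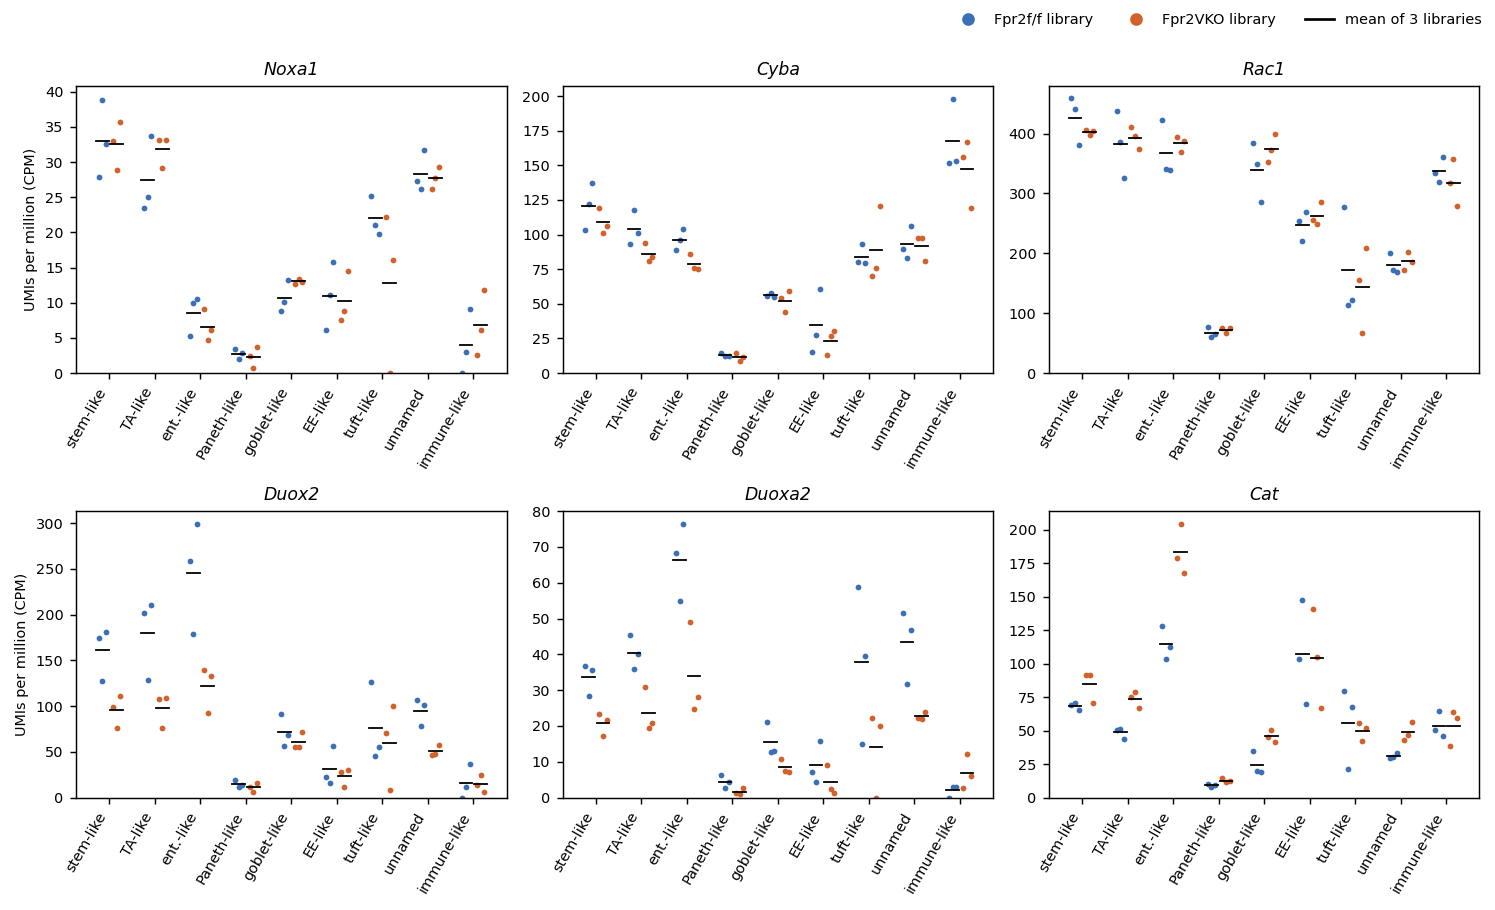
Level (y axis, CPM) of the oxidase subunits Noxa1, Cyba and Rac1, the dual oxidase pair Duox2 and Duoxa2, and catalase (Cat) by class (x axis) in each library, with the mean of 3 libraries as a bar. Noxa1 peaks in stem-like cells, and Duox2, Duoxa2 and Cat peak in enterocyte-like cells.

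Both oxidase genes share exon bases with a gene on the other strand, Nox1 with Cstf2 and Noxo1 with Tbl3, and the strand setting of the counting is not given in the sources used here. Cstf2, a polyadenylation factor gene, was at 62.2 ± 9.72 CPM in stem-like, 48.5 ± 6.71 CPM in TA-like and 26.8 ± 4.53 CPM in enterocyte-like cells. Tbl3 was at 39.9 ± 4.93 CPM in TA-like, 33.1 ± 4.01 CPM in stem-like and 23.8 ± 2.71 CPM in enterocyte-like cells. The part of reads from these neighbours in the Nox1 and Noxo1 values was not tested. The genes whose class means followed Nox1 most closely, by Pearson's r of log2(CPM + 1) over the 8 epithelial classes among 8853 genes, were Esrrg (r = 0.982), Zfp808 (0.974), Zfp934 (0.968), Tsen15 (0.965) and Dna2 (0.959), all highest in stem-like cells. For Noxo1 they were Cldn15 (0.984), Selenbp1 (0.977), Acp5 (0.97), Acot11 (0.961) and Aoc1 (0.959), all highest in enterocyte-like cells. The correlation between Nox1 and Noxo1 themselves was 0.348. The classes share libraries, depth and totals, so these correlations are descriptions.

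At equal depth the mean share of cells with a UMI over 6 libraries was again highest in stem-like cells for Nox1 and in enterocyte-like cells for Noxo1. After each cell was thinned to 2000 UMIs, Nox1 was seen in stem-like cells in 2.73, 4.67 and 5.16% of Fpr2f/f cells against 2.6, 1.97 and 3.11% of Fpr2VKO cells per library. In TA-like cells it was seen in 2.65, 1.33 and 2.84% of Fpr2f/f cells against 3.58, 2.5 and 1.97% of Fpr2VKO cells per library. The TA-like share was above the stem-like share in 2 of the 3 Fpr2VKO libraries, with means of 2.68% and 2.56%, so the shares of these classes give no order in Fpr2VKO. The mean over 6 libraries (± SD) was 3.37 ± 1.26% in stem-like, 2.48 ± 0.769% in TA-like and 0.63 ± 0.226% in enterocyte-like cells. In immune-like cells, which should lack the gene, it was 0.667 ± 1.63%, from 1 cell, which is too few to set a background. The enterocyte-like share rested on 16 cells, and whether it exceeds background was not tested. Noxo1 was seen in enterocyte-like cells in 12.1, 15 and 13.4% of Fpr2f/f cells against 11.1, 11.8 and 12.5% of Fpr2VKO cells per library. Its mean was 12.7 ± 1.37% there, 10.5 ± 1.94% in stem-like, 8.51 ± 1.57% in TA-like and 1.08 ± 1.74% in immune-like cells, the last from 4 cells. Without thinning, the Nox1 share was 26.8% in stem-like and 0.932% in immune-like cells, and the Noxo1 share was 50.2% in enterocyte-like and 3.22% in immune-like cells. The median depths before thinning were 27330 UMIs in stem-like, 9754 in enterocyte-like and 5819 in immune-like cells. Cells under 2000 UMIs left out were 2 Fpr2f/f and 6 Fpr2VKO stem-like cells, and 73 and 36 enterocyte-like cells. Between genotypes the exact two-sided permutation test of the thinned shares gave p from 0.2 to 1 over 9 classes and both genes, with all adjusted p at 1 over 18 tests, in a design whose smallest p is 0.1. The stem-like Nox1 share was 4.19% in Fpr2f/f and 2.56% in Fpr2VKO (p = 0.2, exact permutation test), while its CPM estimate given below lay in the other direction, so no order is read from it.

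**Figure D3:**
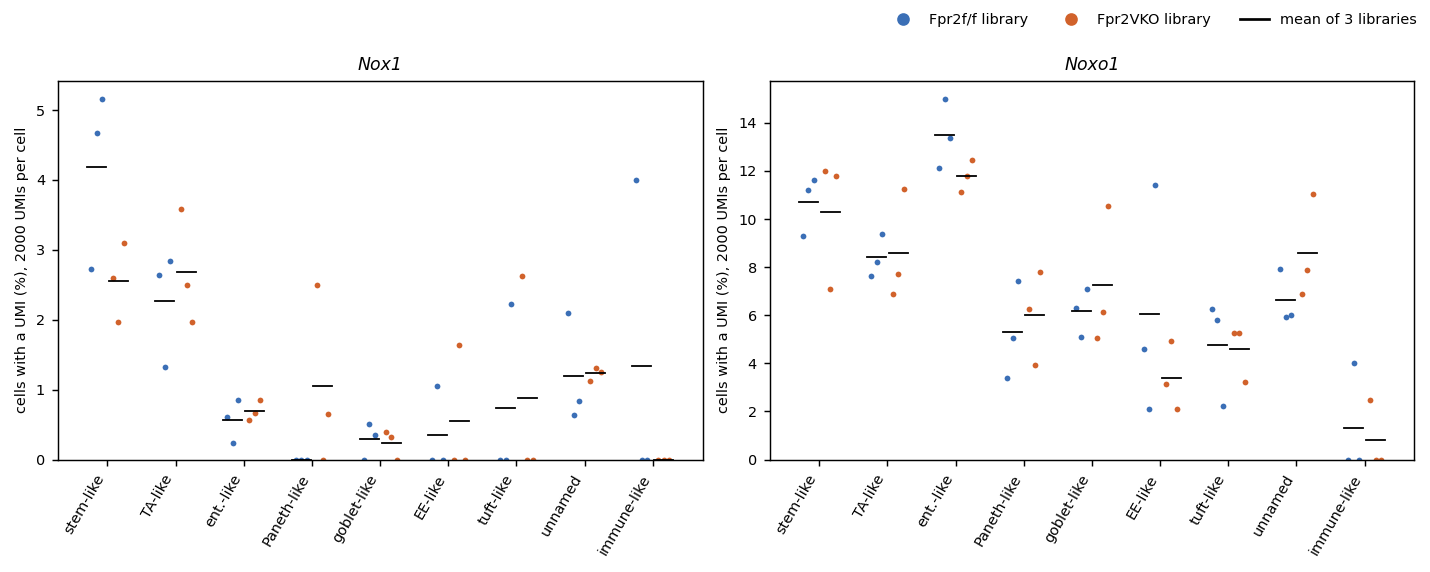
Share of cells with at least 1 UMI of Nox1 (left) and Noxo1 (right), in percent, after each cell was thinned to 2000 UMIs, by class and library, with the mean of 3 libraries as a bar. The Nox1 bar is highest in stem-like cells in Fpr2f/f (4.19%), and in Fpr2VKO it is 2.68% in TA-like and 2.56% in stem-like cells. The Noxo1 bars of both groups are highest in enterocyte-like cells.

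The superoxide dismutases were close in stem-like, TA-like and enterocyte-like cells. Sod1 (chr16:90220754-90226329) was at 305 ± 12.4 CPM in enterocyte-like, 299 ± 21.2 CPM in stem-like and 293 ± 15 CPM in TA-like cells, and the 3 classes overlapped. In enterocyte-like cells Sod1 was at 294, 319 and 292 CPM in Fpr2f/f against 302, 321 and 302 CPM in Fpr2VKO libraries, and the groups overlapped. Sod2 (chr17:13006846-13040063), the mitochondrial enzyme, was at 147 ± 20.7 CPM in enterocyte-like and 122 ± 8.14 CPM in stem-like cells, higher in the first in 5 of 6 libraries. In enterocyte-like cells Sod2 was at 159.6, 126 and 117 CPM in Fpr2f/f against 162, 166 and 152 CPM in Fpr2VKO libraries. The Fpr2VKO values lay around the highest Fpr2f/f value, and the groups overlapped. Enteroendocrine-like cells kept 252 ± 34.3 CPM of Sod1 and 107 ± 8.12 CPM of Sod2, above goblet-like cells, at 162 ± 7.2 CPM and 61.1 ± 6.45 CPM.

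Of the named classes, enterocyte-like cells had the highest mean levels of the peroxide-removing enzymes, apart from Gpx2. Gpx1 (chr9:108338903-108340343), the glutathione peroxidase of most tissues, was at 1146 ± 129.5 CPM in enterocyte-like cells, and its range of 975 to 1307 CPM lay above that of TA-like cells, 599 to 802 CPM. In enterocyte-like cells Gpx1 was at 1124, 1291 and 975 CPM in Fpr2f/f against 1103, 1307 and 1074 CPM in Fpr2VKO libraries. The groups overlapped. Gpx4 (chr10:80047166-80056439), which reduces lipid peroxides in membranes, was at 174 ± 22.5 CPM in enterocyte-like and 168 ± 46.3 CPM in tuft-like cells, which did not differ beyond their spread. Among cells with at least 5000 UMIs the order of this pair turned, with 168 CPM in enterocyte-like and 174 CPM in tuft-like cells. Over all cells kept, the mean of Gpx4 in unnamed cells was 186 ± 16.3 CPM, above both. In enterocyte-like cells Prdx1 (chr4:116685544-116700822), a cytosolic thiol peroxidase, was at 2696, 1933 and 2051 CPM in Fpr2f/f against 2702, 2585 and 2816 CPM in Fpr2VKO libraries. Replicates 2 and 3 of Fpr2f/f were the lowest, and the groups overlapped. Its mean there was 2464 ± 375 CPM, higher than the stem-like mean of 1793 ± 173 CPM in 6 of 6 libraries although the ranges met. Gpx2 (chr12:76792333-76795554), the glutathione peroxidase typical of gut epithelium, was at 533 ± 71.5 CPM in stem-like, 457 ± 69.4 CPM in TA-like and 431 ± 71 CPM in enterocyte-like cells. These ranges overlapped, but the order held in 6 of 6 libraries at each step. Gpx2 then dropped to 251 ± 80.4 CPM in tuft-like, 217 ± 41.7 CPM in goblet-like and 183 ± 25.9 CPM in enteroendocrine-like cells. The annotation lists pseudogenes named Gpx2-ps1 and Gpx4-ps2, which are not rows of the matrices, so reads that fit both copies are an uncertainty for these genes.

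The genes whose class means followed Gpx2 most closely were H2-Eb1 (r = 0.995 over 8 classes), Sdc1 (0.995), Cd74 (0.992), Pycrl (0.992) and H2-Aa (0.991). H2-Eb1, Cd74 and H2-Aa encode parts of the MHC class II pathway. Among the members, Sod1 and Sod2 (r = 0.982) and Sod1 and Prdx1 (0.949) were the most alike.

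The NRF2-linked pair differed widely in level. In enterocyte-like cells Nqo1 (chr8:107388225-107403206), a quinone reductase, was at 62.8, 52.8 and 48.7 CPM in Fpr2f/f against 48.9, 56.7 and 54.5 CPM in Fpr2VKO libraries, with overlap. Its means were 54.1 ± 5.31 CPM in enterocyte-like, 46.9 ± 4.02 CPM in TA-like and 35.2 ± 3.53 CPM in stem-like cells. Goblet-like cells were at 3.06 ± 1.08 CPM, 17.7 times below the enterocyte-like mean, and Paneth-like cells at 2.18 ± 0.629 CPM. Nfe2l2, which encodes NRF2, was at 394 ± 50.8 CPM in enterocyte-like, 183 ± 24.9 CPM in goblet-like and 27.2 ± 3.75 CPM in Paneth-like cells. Hmox1 (chr8:75093621-75100589), the inducible haem oxygenase, had only 181 UMIs in all epithelial cells and 5 in tuft-like cells, the class with the highest mean, 2.79 ± 3.59 CPM. Every class of epithelial cells had Hmox1 values that overlapped its neighbours, so no order of its levels can be read at this depth.

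Enterocyte-like cells had the highest mean of the 7 named classes for 7 of the 10 genes, stem-like cells for Nox1 and Gpx2, and tuft-like cells for Hmox1. For Sod1 the enterocyte-like value was above the stem-like one in 3 of 6 libraries. The order did not hold in shallow enterocyte-like cluster 4 for several of these genes, as given below. Paneth-like cells were the lowest for 8 of 10. Secretory products take much of the total there: 35 genes of the Paneth and goblet marker lists and the alpha-defensin family held 66.9 to 70.4% of Paneth-like UMIs and 12.2 to 17.2% of goblet-like UMIs. Scaled to totals without these genes, an alternative chosen after seeing the data, the Paneth-like means rose to 45.4 ± 6.02 CPM for Noxo1, 297 ± 47.4 CPM for Gpx1, 262 ± 67.2 CPM for Gpx2, 549.5 ± 77.7 CPM for Prdx1, 3.48 ± 3.06 CPM for Nox1 and 7.02 ± 1.88 CPM for Nqo1. Paneth-like cells were then the lowest for 4 genes, Gpx4, Sod1, Sod2 and Prdx1. They then had the highest mean of Hmox1, 3.24 ± 1.19 CPM, beside 2.81 ± 3.62 CPM in tuft-like cells, with overlap. The lowest mean of Nox1 was then in enterocyte-like cells, 2.5 ± 1.14 CPM. Prdx1 was then 2468 CPM in enterocyte-like cells against 549.5 CPM in Paneth-like cells.

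Within a class the levels also varied between clusters that differed in depth. The TA-like class held cluster 3 (median 4251 UMIs per cell) and cluster 5 (35320 UMIs), with Prdx1 at 676 and 1783 CPM, Sod2 at 52.2 and 124 CPM and Gpx4 at 217 and 127 CPM. Nox1 was at 12.7 and 10.3 CPM and Gpx2 at 491 and 441 CPM in the same clusters. The enterocyte-like class held cluster 4 (3724 UMIs), cluster 9 (28538 UMIs) and cluster 15 (27243 UMIs), with Prdx1 at 841, 2753 and 2439 CPM and Nqo1 at 25.2, 61.1 and 49.2 CPM. Cluster 4, led by the ileal bile acid genes Fabp6 and Slc10a2, thus had a lower CPM of Prdx1 and Nqo1 than the deeper clusters. It held 38.5 to 60.3% of the enterocyte-like cells of Fpr2f/f libraries and 26.6 to 48.4% of those of Fpr2VKO libraries. The Prdx1, Nqo1, Sod1 (275 CPM) and Sod2 (64.7 CPM) levels of cluster 4 were below the stem-like and TA-like means. Those means were 1793 and 1630 CPM for Prdx1 and 35.2 and 46.9 CPM for Nqo1. For Sod1 they were 299 and 293 CPM, and for Sod2 122 and 113 CPM. The Gpx1 (848 CPM) and Gpx4 (233 CPM) levels of cluster 4 were above the means of both classes. Among unnamed cells, cluster 11 had the highest levels of Noxo1 (95.9 CPM), Gpx2 (799 CPM) and Prdx1 (2156 CPM) of the unnamed clusters, and cluster 1, led by Creb3l3, had 1428 CPM of Gpx1. The Noxo1 and Gpx2 levels of cluster 11 were above the highest mean of a named class, 76.2 and 533 CPM. Its Sod1 (390 CPM) and Sod2 (151 CPM) levels were so too, beside 305 and 147 CPM. So were the Gpx1, Gpx4 (262 CPM) and Hmox1 (3.76 CPM, from 21 UMIs) levels of cluster 1, beside 1146, 174 and 2.79 CPM. The Prdx1 level of cluster 11 was not (2464 CPM). The highest classes given here are thus those among named classes. The part of depth in these differences was not tested.

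Free RNA, taken as barcodes under 100 UMIs, held 7.25 to 13.1% of all UMIs and all 10 transcripts. Its level was 5.19 ± 1.99 CPM for Nox1, 41.4 ± 7.58 CPM for Noxo1, 313 ± 58.9 CPM for Gpx2 and 693 ± 109 CPM for Prdx1. The level over all epithelial cells was 0.789 times the free level for Hmox1 and 0.793 times for Gpx4, and up to 2.05 times for Prdx1. For Nox1 the stem-like level was 4.41 times the free level, whereas the enterocyte-like, goblet-like and Paneth-like levels were below it. The part of free RNA in these levels was not tested, so whether they come from the cells is not known.

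The comparison of Fpr2VKO with Fpr2f/f asked whether loss of epithelial Fpr2 moved these genes. Counts of each library were added up, once for the whole epithelium and once for every class, and edgeR's quasi-likelihood test was run on all genes. None of the 10 genes passed an adjusted p of 0.05 in any comparison: 0 of 76 gene by comparison tests, and 5 at an unadjusted p under 0.05, with 0 by DESeq2 as well. The share of all genes tested that passed was 0.0241% for the whole epithelium. By class it was 0.0254% (tuft-like), 0.0113% (enteroendocrine-like), 0.233% (goblet-like), 0.307% (Paneth-like), 0.147% (enterocyte-like), 0.0982% (TA-like), 0.29% (stem-like) and 0.196% (unnamed). Few genes passed at all, so a count of 0 members is close to the background. At the unadjusted threshold 1 member (Gpx2) passed in stem-like, where 8.35% of all genes did, 1 in goblet-like (9.29%), 1 in Paneth-like (8.34%), 1 in enterocyte-like (8.39%) and 1 in TA-like cells (6.57%). No member did for the whole epithelium (9.1% of all genes), or in enteroendocrine-like (3.46%), tuft-like (2.31%) and unnamed cells (11.2%). Hmox1 was too low for a test in every class, Nox1 in the Paneth-like, goblet-like, enteroendocrine-like and tuft-like classes, and Nqo1 in the last 2 of these.

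**Figure D4:**
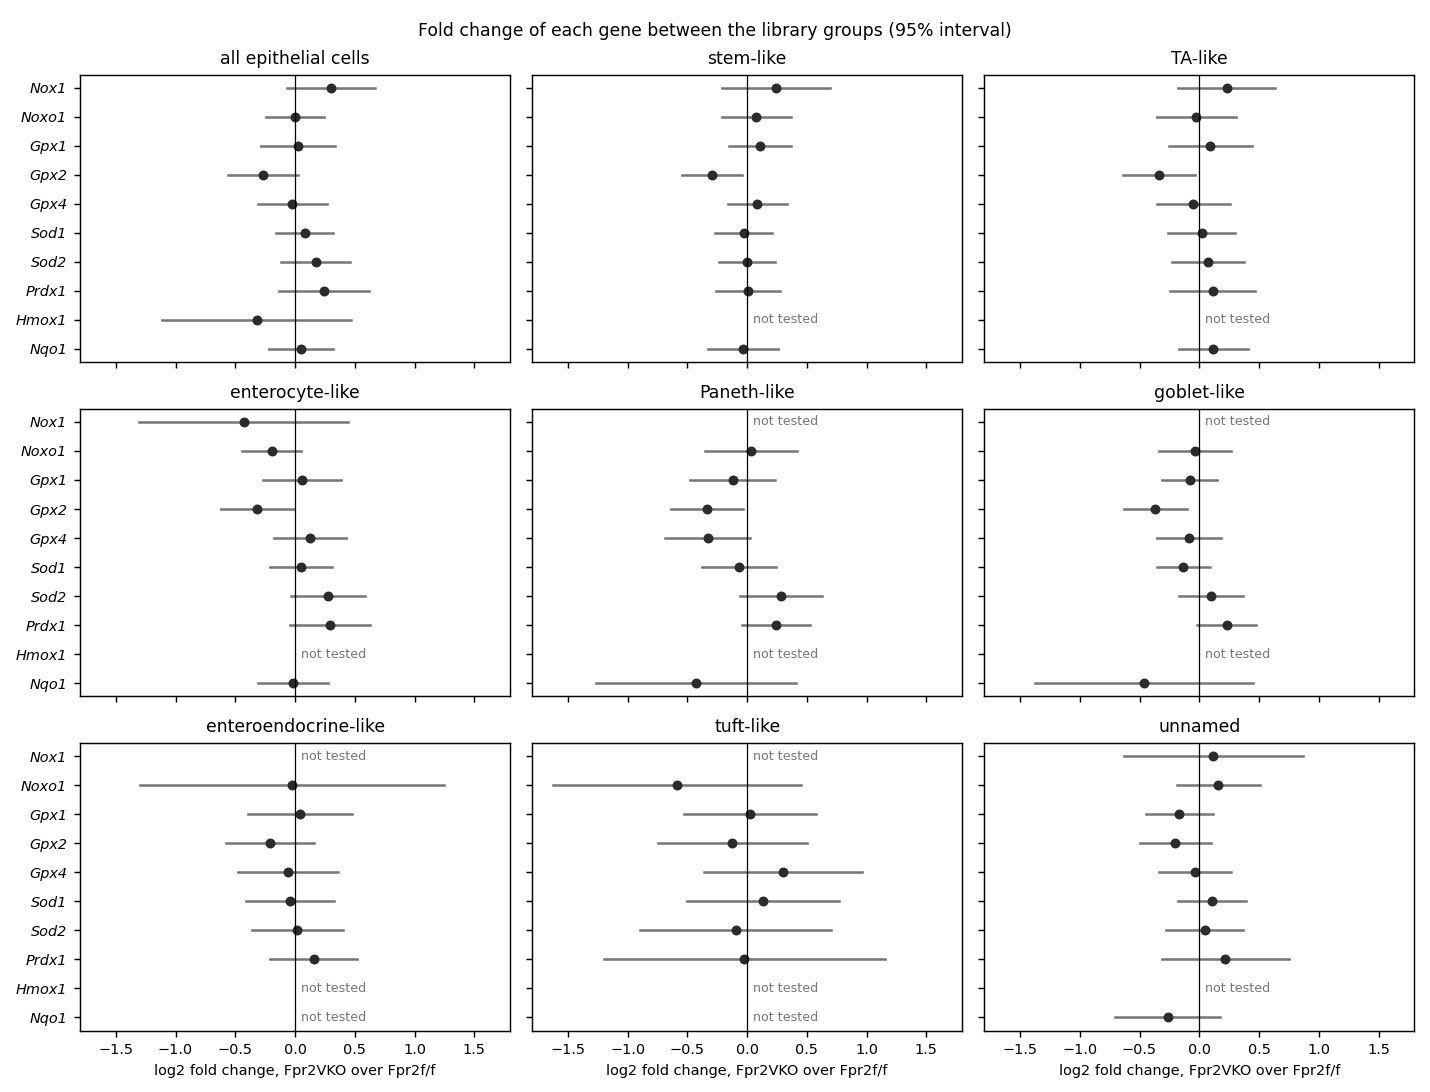
Fitted log2 fold change of each gene, Fpr2VKO over Fpr2f/f (x axis), with its 95% interval, in all epithelial cells and in each class. Points of Gpx2 lie left of 0 in all 9 panels, and its intervals leave out 0 in 5 of them.

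Over all epithelial cells Nox1 was at 7.41, 5.02 and 8.25 CPM in Fpr2f/f against 8.33, 7.24 and 9.09 CPM in Fpr2VKO libraries. The second Fpr2f/f library was the lowest and the groups overlapped. The log2 fold change, Fpr2VKO over Fpr2f/f, was 0.30 ± 0.17 (SE), with a 95% interval of -0.063 to 0.67 (adjusted p = 0.628, edgeR). With a mitochondrial limit of 10% it turned to -0.053, and with equal weight per class it was 0.039. In stem-like cells, where Nox1 was highest, it was 0.24 ± 0.21 (SE) with an interval of -0.21 to 0.69 (adjusted p = 0.85, edgeR). Noxo1 over all epithelial cells was at 47.1, 45.4 and 55.1 CPM in Fpr2f/f against 52.5, 42.4 and 49.3 CPM in Fpr2VKO libraries, a log2 fold change of 0.0016 with an interval of -0.24 to 0.24. These intervals allow changes of Nox1 of up to 1.59 times over all epithelial cells, and of Noxo1 between 0.847 and 1.18 times. Bulk sums cannot tell fewer cells of a type from less RNA per cell, and stem-like cells made up 5.1 ± 2.44% of Fpr2f/f and 9.21 ± 0.415% of Fpr2VKO epithelial cells (exact permutation p = 0.1, the smallest that n = 3 libraries each can give). These shares rest on the mitochondrial limit of 20% and on the clustering made with it. At limits of 10% and 40% the cells were clustered and named anew, and the groups overlapped at both. With 40% the stem-like class took in a shallow cluster of 4284 cells (median 2938 UMIs) with Cdca7, Hells and Il31ra among its leading genes. With 20%, a shallow cluster with these leading genes was unnamed. The part of the limit and of the naming in the change was not tested. With 40%, stem-like cells were 1125 of 7727, 1023 of 9970 and 945 of 6830 in Fpr2f/f libraries. Fpr2VKO libraries had 1163 of 11084, 1282 of 6754 and 861 of 9573. With 10%, they were 39 of 593, 58 of 1342 and 37 of 736 in Fpr2f/f. Fpr2VKO libraries then had 25 of 336, 35 of 709 and 17 of 326.

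Gpx2 gave the 5 tests with an unadjusted p under 0.05, and its estimate was below 0 in 9 of 9 comparisons. In stem-like cells it was at 646, 566 and 547 CPM in Fpr2f/f against 518, 445 and 473 CPM in Fpr2VKO libraries. Every Fpr2VKO value lay below every Fpr2f/f value, which 12.4% of all genes tested in this class also showed in either direction. The log2 fold change was -0.29 ± 0.12 (SE), with adjusted p = 0.492 (edgeR), and -0.29 without the cells whose barcode was shared. In TA-like cells Gpx2 was at 553, 461 and 521 CPM in Fpr2f/f against 431, 373 and 401 CPM in Fpr2VKO libraries, again without overlap (background 10.7%), with a log2 fold change of -0.34 ± 0.14 (SE) and adjusted p = 0.692 (edgeR). In enterocyte-like cells it was at 546, 458 and 438 CPM in Fpr2f/f against 431, 341 and 375 CPM in Fpr2VKO libraries, without overlap (background 12.4%), with a log2 fold change of -0.32 ± 0.14 (SE) and adjusted p = 0.59 (edgeR). In goblet-like cells Gpx2 was at 285, 192 and 243 CPM in Fpr2f/f against 175, 186 and 222 CPM in Fpr2VKO libraries. The groups overlapped there, the log2 fold change was -0.37 ± 0.13 (SE) and adjusted p = 0.271 (edgeR) was the smallest of any member. The goblet-like class was made up differently in the groups. Cluster 12 (median 22898 UMIs) held 27.9 to 32.5% of goblet-like cells in Fpr2f/f and 38.4 to 49% in Fpr2VKO, and cluster 14 (2324 UMIs) held 28.4 to 34.1% and 22.5 to 27.3%. Within cluster 12 Gpx2 was at 231 ± 53.6 CPM in Fpr2f/f against 191 ± 27.5 CPM in Fpr2VKO, within cluster 13 at 188 ± 35.6 CPM in Fpr2f/f against 144 ± 21 CPM in Fpr2VKO and within cluster 14 at 397 ± 42.7 CPM in Fpr2f/f against 324 ± 36 CPM in Fpr2VKO. The groups overlapped in each of these clusters, and the Fpr2VKO mean was lower in all 3. Within enterocyte-like clusters 4, 9 and 15 Gpx2 was at 524 ± 112, 460 ± 69 and 493 ± 53.2 CPM in Fpr2f/f. Fpr2VKO values were 392 ± 34.4, 371 ± 48.1 and 438 ± 94.4 CPM, and the groups overlapped in each. In TA-like cluster 3 it was at 547 ± 102 CPM in Fpr2f/f against 452 ± 30.6 CPM in Fpr2VKO, with overlap. In TA-like cluster 5 it was at 503 ± 40.2 CPM in Fpr2f/f against 396 ± 34.4 CPM in Fpr2VKO, without overlap. Such values within clusters were chosen after seeing the data and carry no test. In Paneth-like cells the first Fpr2f/f library, at 130.2 CPM, stood above the other 5, at 65.1 to 79.3 CPM, and the log2 fold change was -0.34 ± 0.15 (SE). Over all epithelial cells it was -0.27 ± 0.13 (SE) with an interval of -0.56 to 0.023. In stem-like, TA-like and enterocyte-like cells 1 tested member, Gpx2, had groups that did not overlap. No tested member did so for the whole epithelium (background 13.5%) or in Paneth-like (8.72%), goblet-like (16%), enteroendocrine-like (8.5%), tuft-like (7.19%) and unnamed cells (14.8%). The 9 comparisons share libraries, and the sum over all cells shares cells with the 8 classes, so their common direction is not independent.

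**Figure D5:**
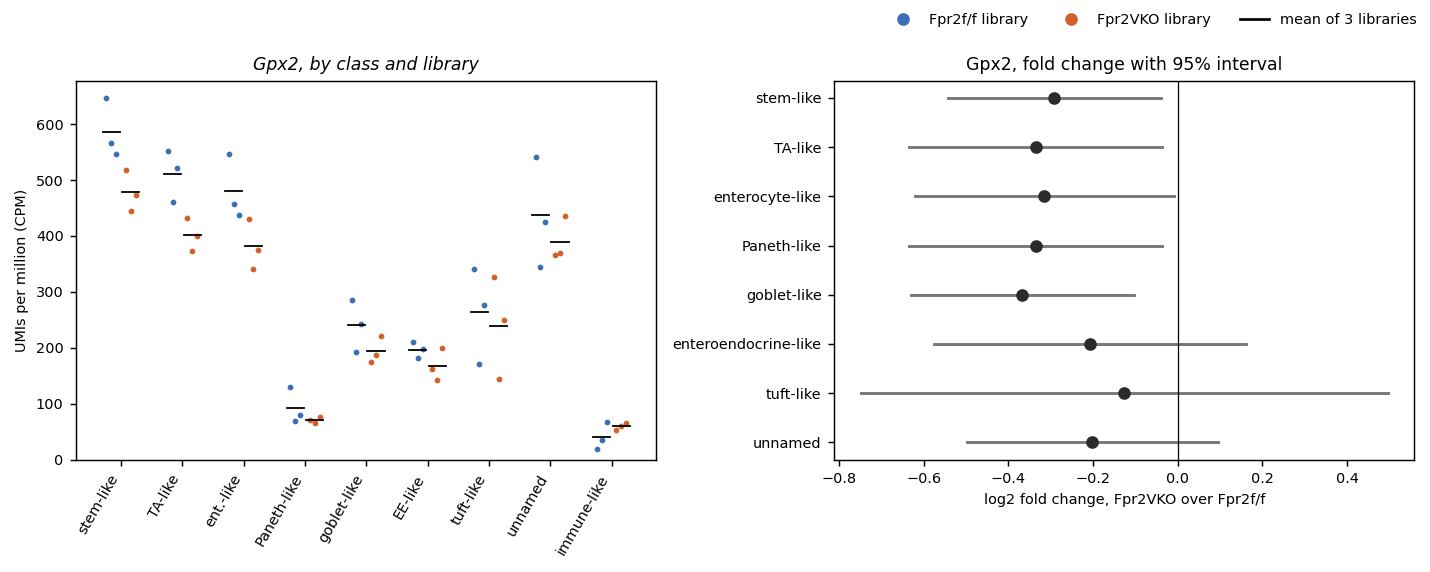
Left, Gpx2 level (y axis, CPM) by class in each library, with the mean of 3 libraries as a bar. Right, its log2 fold change, Fpr2VKO over Fpr2f/f, with the 95% interval in each class. The groups do not overlap in stem-like, TA-like and enterocyte-like cells.

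Free RNA had Gpx2 at 272 to 401 CPM in the Fpr2f/f libraries and 256 to 332 CPM in the Fpr2VKO libraries. The stem marker list was higher in Fpr2VKO in TA-like cells too, 1675 to 2160.3 against 3443 to 3944 CPM (exact permutation p = 0.1). So was the enterocyte marker list, 980 to 1167 CPM in Fpr2f/f against 1286 to 1370 CPM in Fpr2VKO (exact permutation p = 0.1). Of all single genes tested in TA-like cells, 10.7% did not overlap either. The enterocyte list was higher in Fpr2VKO without overlap in stem-like and goblet-like cells as well. The part of either list in the Gpx2 values was not tested. Median depth over all cells was higher in each Fpr2VKO library as well. Within stem-like and TA-like cells the median depths of the groups overlapped. In enterocyte-like cells they were 9754, 6030 and 6976 UMIs in Fpr2f/f against 9617, 21033.5 and 18019 UMIs in Fpr2VKO libraries. The groups thus overlapped there through Fpr2VKO replicate 1 only. Among cells with at least 5000 UMIs the log2 fold change of Gpx2 was -0.29 in stem-like, -0.34 in TA-like and -0.31 in enterocyte-like cells. With a mitochondrial limit of 10% it shrank to -0.18 in TA-like and -0.16 in enterocyte-like cells. Markers of blood vessels, stroma and red cells were low in epithelial cells of both groups, at most 7.15, 0.907 and 0.961 CPM per list, and the 10 immune markers summed to at most 24 CPM. A list of 7 myeloid markers was higher, at 40.2 to 48.6 CPM in Fpr2f/f and 29.8 to 40.9 CPM in Fpr2VKO. In TA-like cells it was at 51.8 to 68 CPM in Fpr2f/f and 40.2 to 48.6 CPM in Fpr2VKO, without overlap (exact permutation p = 0.1, background 10.7% of single genes). The groups overlapped for this list in stem-like and enterocyte-like cells. The sum does not show which markers carry it. In stem-like cells it was 42.8 to 48.1 CPM in Fpr2f/f and 32.1 to 43.5 CPM in Fpr2VKO, although Lyz2 had no UMIs there. Whether the sum marks myeloid cells was not tested.

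The other peroxide genes did not pass the test in any comparison. Prdx1 had a log2 fold change of 0.29 (-0.041 to 0.63, 95% interval) in enterocyte-like, 0.23 (-0.019 to 0.48) in goblet-like and 0.0061 (-0.26 to 0.28) in stem-like cells, and its estimate was above 0 in 8 of 9 comparisons. Sod2 had 0.28 (-0.032 to 0.58) in enterocyte-like and -0.0014 (-0.24 to 0.23) in stem-like cells. For Gpx1 and Gpx4 the intervals in enterocyte-like cells were -0.27 to 0.39 and -0.18 to 0.43, and for Sod1 and Nqo1 -0.21 to 0.31 and -0.31 to 0.28. A test of the class by genotype terms together, with library as a block over 7 named classes, passed 8 of 14612 genes at adjusted p under 0.05 and 0 of the 10 members, whose lowest adjusted p was 0.913 (edgeR); 904 genes and 0 members had an unadjusted p under 0.05.

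A list of 57 other genes of the pathway, covering oxidases, peroxide removal, the thioredoxin and glutathione cycles, NRF2 control and selenoprotein synthesis, gave 4 passing tests. The list was chosen with earlier results of these data known, so its counts beside the background are descriptions. In stem-like cells 1 of 44 genes tested fell, Duox2, where 0.29% of all genes passed. It was at 175, 127 and 181 CPM in Fpr2f/f against 98.5, 76.6 and 111 CPM in Fpr2VKO libraries, without overlap (background 12.4%), a log2 fold change of -0.76 ± 0.14 (SE) (adjusted p = 0.0164, edgeR). In unnamed cells 2 of 46 fell, Duox2 and its partner Duoxa2, where 0.196% of all genes passed. Duox2 was at 107, 77.8 and 101 CPM in Fpr2f/f against 46.2, 47.4 and 57.7 CPM in Fpr2VKO libraries (-0.96 ± 0.15 (SE) on the log2 scale, adjusted p = 0.00691, edgeR). Duoxa2 was at 51.7, 31.7 and 46.7 CPM in Fpr2f/f against 22.3, 21.9 and 24 CPM in Fpr2VKO libraries (-0.95 ± 0.18 (SE), adjusted p = 0.0415, edgeR). Both genes had lower values in every Fpr2VKO library than in any Fpr2f/f library in these cells (background 14.8%). In goblet-like cells 1 of 45 rose, the catalase gene Cat, where 0.233% of all genes passed. Cat was at 34.5, 20.1 and 19.3 CPM in Fpr2f/f against 45.5, 50.9 and 41.3 CPM in Fpr2VKO libraries (0.90 ± 0.18 (SE), adjusted p = 0.0284, edgeR). The goblet-like clusters 12 and 14 differed in share between the groups, as given above. Within cluster 12 Cat was at 29.5 ± 8.92 CPM in Fpr2f/f against 50.9 ± 5.5 CPM in Fpr2VKO, and within cluster 13, with as few as 4 UMIs in a library, at 12.6 ± 9.89 CPM in Fpr2f/f against 16.8 ± 1.71 CPM in Fpr2VKO. Within cluster 14, with as few as 2 UMIs, it was at 9.79 ± 2.03 CPM in Fpr2f/f against 28.8 ± 9.99 CPM in Fpr2VKO, and the groups overlapped in cluster 13 alone. No gene of the list passed over all epithelial cells (54 tested) or in TA-like (44), enterocyte-like (44), Paneth-like (43), enteroendocrine-like (39) or tuft-like (24) cells, where 8, 7, 9, 5, 2 and 0 had an unadjusted p under 0.05, as did 9.1, 6.57, 8.39, 8.34, 3.46 and 2.31% of all genes. In stem-like, goblet-like and unnamed cells 9, 6 and 8 genes of the list did, beside 8.35, 9.29 and 11.2% of all genes. In enterocyte-like cells Duox2 had -0.99 ± 0.19 (SE) (adjusted p = 0.0758) and Cat 0.70 ± 0.14 (SE) (adjusted p = 0.058) by edgeR. The interaction test passed 0 of 48 genes of the list, so a difference between classes was not shown. Each call was lost when certain libraries were left out and under certain settings. For Duox2 in stem-like cells the adjusted p by edgeR was 0.0907 with Fpr2f/f replicate 1 left out, 0.0549 with Fpr2f/f replicate 3 left out, 0.072 with Fpr2VKO replicate 1 left out and 0.0805 with Fpr2VKO replicate 2 left out. It was also 0.0835 with a mitochondrial limit of 40%, 0.0662 with no alignment of libraries and 0.0749 with doublets kept, within a range over the 15 alternatives of 1.98e-06 to 0.0907. For Duox2 in unnamed cells the adjusted p by edgeR was 0.0914 with Fpr2VKO replicate 1 left out. It was also 0.858 with a mitochondrial limit of 10% (log2 fold change -0.17), 0.400 with a mitochondrial limit of 40% and 0.999 in cells with at least 5000 UMIs (log2 fold change -0.54), within a range over the 17 alternatives of 3.66e-07 to 0.999. For Duoxa2 in unnamed cells the adjusted p by edgeR was 0.1001 with Fpr2f/f replicate 3 left out, 0.249 with Fpr2VKO replicate 1 left out, 0.0585 with Fpr2VKO replicate 2 left out and 0.21 with Fpr2VKO replicate 3 left out. It was also 0.893 with a mitochondrial limit of 10% (log2 fold change -0.15), 0.21 with a mitochondrial limit of 40%, 0.129 with no alignment of libraries, 0.0571 with doublets kept, 0.85 in cells with at least 5000 UMIs and 0.0796 with the immunoglobulin-led cluster left out, within a range over the 17 alternatives of 3.59e-05 to 0.893. For Cat in goblet-like cells the adjusted p by edgeR was 0.0811 with Fpr2f/f replicate 2 left out, 0.0777 with Fpr2f/f replicate 3 left out, 0.111 with Fpr2VKO replicate 1 left out, 0.113 with Fpr2VKO replicate 2 left out and 0.0636 with Fpr2VKO replicate 3 left out. It was also 0.802 with a mitochondrial limit of 10% (log2 fold change 0.56), 0.209 with doublets kept and 0.0773 in cells with at least 5000 UMIs, within a range over the 15 alternatives of 4.05e-05 to 0.802.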

How the data were processed

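The deposited matrices give unnormalized UMI counts for each gene in each barcode, which the authors made with MobiVision on mm10; the annotation release and the strand setting of counting are not given in the sources used here. The submitters' processing notes also name Seurat 4.0.0. The genes, the pathway list, the markers and the tests were chosen with earlier results of these data known.

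Barcodes with at least 1000 UMIs, 500 genes and at most 20% mitochondrial UMIs were kept. The cells most like simulated doublets (25% of the cell number) were removed, at 0.8% for every 1000 cells of a library. Cells were clustered on 2000 variable genes without the 10 members, 30 principal components, mutual nearest neighbour alignment of libraries and Leiden clustering (leidenalg 0.10.2, resolution 1, 20 neighbours, Python 3.11.15). Clusters were named after a class if its markers had a mean log2 fold of at least 0.5, with at least 3 markers detected in 10% of its cells and 1 or more among its 10 leading genes. UMIs were summed per library and class (at least 20 cells) and tested with edgeR 4.0.16 (R 4.3.3; TMM, filterByExpr, robust quasi-likelihood F test, Benjamini-Hochberg adjustment over all genes tested), with DESeq2 1.42.0 as an alternative. SE was taken as the log2 fold change divided by the square root of F. The fit was run on simulated counts with the same spread for all genes and known changes larger than the estimates of the members. That run gives no measure for changes as small as these estimates. The genes named are the 10 members, the genes of the pathway list that passed, Fpr2, and for Nox1, Noxo1 and Gpx2 the 5 genes with the most similar class means among those with at least 20 CPM in a class. Noxa1, Cyba, Rac1, Cybb, Ncf1, Nfe2l2, Cstf2, Tbl3, the leading genes of clusters and the levels of Duox2, Duoxa2 and Cat by class fall outside this rule and were chosen after values were seen. Counting intervals cover sampling error only. Sequences and start sites are from RefSeq; gene positions are from GENCODE on GRCm38. The study's cell-wise test between genotypes was not used, because it treats cells as replicates.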

Additional observations from a re-analysis of the deposited data

How the results depend on the processing

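In all 142 alternatives to the 9 comparisons 0 of the 10 genes passed. Among the settings, leaving out shared barcodes and leaving out the immunoglobulin-led cluster were added after seeing the data. For the other mitochondrial limits, no alignment and doublets kept, the cells were clustered and named anew, so a class there can hold other clusters. The signs of fold changes over all epithelial cells were not stable. On the log2 scale, a mitochondrial limit of 10% turned Nox1 to -0.053, Gpx1 to -0.15, Sod1 to -0.14, Prdx1 to -0.029, Hmox1 to 0.43 and Nqo1 to -0.28. A limit of 40% turned Gpx1 to -0.060, Nqo1 to -0.018 and Gpx2 in enteroendocrine-like cells to 0.11. Cells with at least 5000 UMIs gave -0.064 for Noxo1, 0.020 for Gpx4 and 0.026 for Hmox1. Equal weight per class gave -0.081 for Noxo1, 0.083 for Gpx4 and -0.11 for Nqo1. Gpx4 was 0.0036 by DESeq2 and 2.07e-05 with no filter on low counts, and Gpx2 in tuft-like cells was 0.24 with no alignment of libraries. Leaving out 1 library gave -0.053 to 0.089 for Noxo1, -0.091 to 0.12 for Gpx1, -0.099 to 0.11 for Gpx4, -0.54 to 0.093 for Hmox1, -0.011 to 0.18 for Nqo1 and -0.43 to 0.058 for Gpx2 in tuft-like cells. The cause was not tested. Gpx2 kept its sign in the other 7 comparisons. Without thinning, the share of cells with a UMI, Fpr2VKO minus Fpr2f/f, moved to 1.7, 1.58, 0.545, 0.76 and 0.575 percentage points for Nox1 in stem-like, TA-like, enterocyte-like, goblet-like and unnamed cells, and to 6.36, 8.81, 18.3, 5.76, 3.62 and 4.19 for Noxo1 in TA-like, enterocyte-like, Paneth-like, goblet-like, enteroendocrine-like and unnamed cells. The number of all genes that passed (range over alternatives) was 4 (1 to 144) over all epithelial cells, 32 (14 to 167) in stem-like, 12 (2 to 194) in TA-like, 17 (1 to 237) in enterocyte-like, 27 (1 to 91) in Paneth-like, 25 (6 to 109) in goblet-like, 1 (0 to 14) in enteroendocrine-like, 1 (1 to 5) in tuft-like and 23 (1 to 381) in unnamed cells. Deviations of same-numbered libraries correlated with r = -0.0482, -0.0757 and 0.269, so the numbers were not taken as pairs. Fpr2f/f replicate 1 correlated best with Fpr2VKO replicate 2 (0.153) and Fpr2f/f replicate 2 with Fpr2VKO replicate 1 (0.215). With the replicate block 25 genes passed over all epithelial cells and 102 in stem-like cells. The limit of 10% left too few stem-like, enteroendocrine-like and tuft-like cells, and 5000 UMIs too few tuft-like cells, for a fit. Depth limits Nox1 outside stem-like and TA-like cells, and Hmox1 in every class.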
